A study of Mus musculus with 6 samples.

Results

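The genes described here are the type 2 vomeronasal receptors (V2Rs) whose genes lie on mouse chromosome 17. They were chosen by symbol alone: Vmn2r90 to Vmn2r120 and Vmn2r124, without Vmn2r116 and without pseudogene names that carry -ps. Of the 31 symbols in this range, Vmn2r119 has no gene of its own in the annotation used, so 30 genes were examined, of 121 V2R genes and 35450 genes quantified. The RNA came from the vomeronasal organ of 6 littermate mice at postnatal day 60. Of these, 3 were wild type (Cnpy1+/+) and 3 were homozygous for a Cnpy1 knockout allele (Cnpy1-/-). Each genotype had 2 males and 1 female. The organs of both sides of a mouse went into 1 directional poly(A) library, so each library stands for 1 mouse. The labels do not describe how the knockout allele was made, and no cell type was sorted.

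The vomeronasal organ lies along the nasal septum and senses pheromones and other social cues. Its apical sensory neurons use the G protein subunit encoded by Gnai2 together with V1R receptors. Its basal neurons use the subunit encoded by Gnao1 together with V2Rs, which are receptors with a large extracellular domain that bind peptides and proteins. A basal neuron typically expresses a single one of the many tandemly duplicated V2R genes, together with a broadly expressed V2R of family C such as Vmn2r1, Vmn2r6 or Vmn2r7. The level of 1 receptor in the whole organ therefore depends on how many neurons chose it and on how much RNA each of them holds. In bulk tissue, fewer cells of a type and less RNA per cell cannot be told apart. Cnpy1 belongs to the Canopy genes, whose products reside in the endoplasmic reticulum.

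Levels below are CPM, a gene's estimated reads over all reads that a library has in genes, scaled with TMM factors, unless TPM is named. CPM compares the same gene between mice, and TPM, which is also divided by transcript length, compares genes with each other. Per-mouse values are given in the order of mice 1, 2 and 3 of a genotype. A gene is called lower or higher where its adjusted p-value in edgeR's quasi-likelihood test was under 0.05 over all 16679 genes tested. Libraries held 60969508 to 71670766 estimated reads. Cnpy1 itself lay at 280.0, 303 and 325 CPM in wild-type mice and at 67.2, 77.6 and 76.3 CPM in knockout mice, a log2 fold change of -2.04 (SE 0.08, adjusted p = 1.75e-05 in edgeR). All 3 knockout libraries were below all 3 wild-type libraries for the targeted gene, which still had reads in each of them. Across the genes tested, log2 fold changes had a median of 0.0058.

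All 30 receptors passed the filter on low counts, 29 of them also in the knockout libraries alone. The exception was Vmn2r109, the lowest of the 30, which passed through its wild-type reads. Of the 30, 14 were called lower in the knockout, 1 was called higher (Vmn2r117) and 15 were not called. Over all genes tested, 0.683% were called lower and 0.0779% higher. In 17 of the 30 every knockout mouse was below every wild-type mouse, in 4 every knockout mouse was above, and in 9 the groups overlapped. The same complete separation occurred in 8.95% of all genes tested for lower and in 7.22% for higher. The median log2 fold change over the 30 was -0.66, against -0.72 for the 89 other V2R genes tested, of which 47 were called lower and 6 higher. The called decreases were of unequal size: knockout means ranged from 18.4% of the wild-type mean (Vmn2r97) to 64.2% (Vmn2r104).

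The 30 genes fall into 4 blocks when chromosome 17 is split at gaps over 1 Mb (GRCm38, GENCODE M21). The first block holds 22 receptors, from Vmn2r90 to Vmn2r110, between positions 17703747 and 20596423. The second block holds 6, from Vmn2r111 to Vmn2r117, between 22544504 and 23479699. Vmn2r118 (55590370 to 55625192) and Vmn2r120 (57506453 to 57545505) each stand alone further along the chromosome, 32.1 Mb and more beyond the second block. Within the first block 9 of 22 receptors were called lower and 0 higher by edgeR (2 were higher at an unadjusted p under 0.05, and DESeq2 called 1 higher). Over all genes tested, 5.99% were lower and 4.55% higher at an unadjusted p under 0.05 in edgeR, DESeq2 called 1.91% lower and 0.558% higher, and limma with voom weights called 0.654% lower and 0.066% higher. Within the second block 4 of 6 were lower and 1 was higher. Vmn2r118 was not called and Vmn2r120 was lower.

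**Figure D1:**
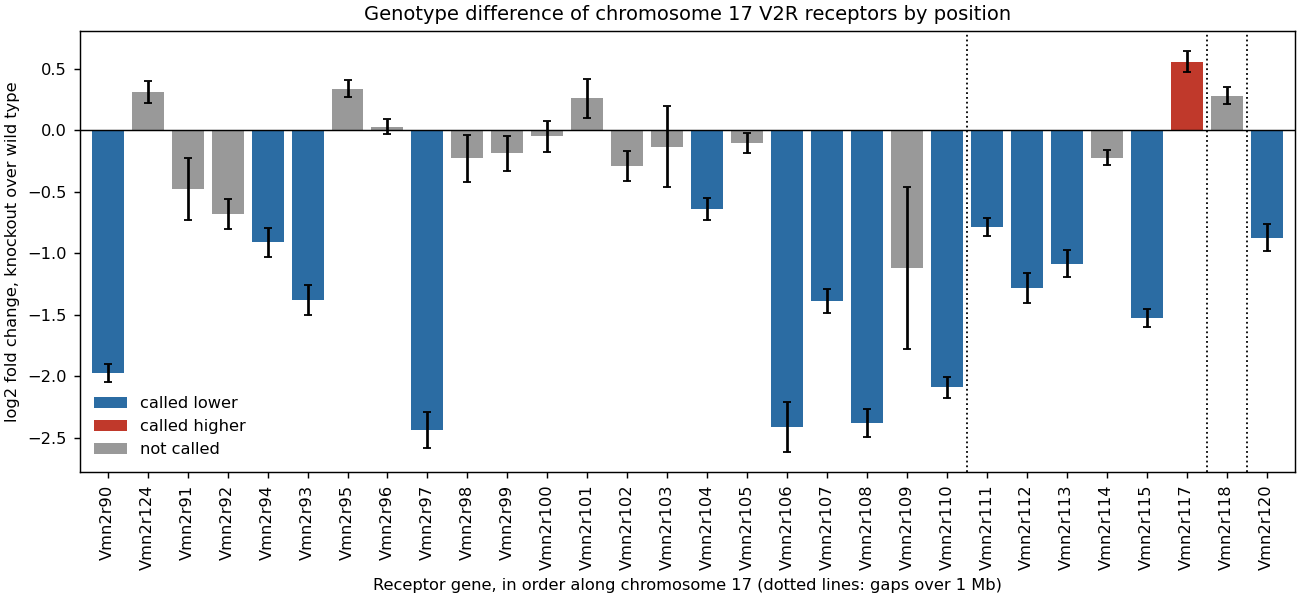
Log2 fold change of each receptor, knockout over wild type, in order along chromosome 17, with bars for the standard error from edgeR and dotted lines at gaps over 1 Mb. Called decreases (blue) alternate with uncalled receptors (grey) in the first block, with 6 uncalled neighbours from Vmn2r98 to Vmn2r103, and Vmn2r117 (red) is the called increase.

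Vmn2r90 opens the first block and was the most abundant of the 30 in wild-type mice, at 30.3 ± 4.43 TPM (SD, n = 3). It lay at 64.4, 67.5 and 74.9 CPM in wild-type mice and at 17.4, 16.6 and 18.7 CPM in knockout mice. The knockout mice lay close together at a mean 25.5% of the wild-type mean, with no overlap. The log2 fold change was -1.97 (SE 0.07, adjusted p = 1.10e-05 in edgeR), and Vmn2r90 had rank 3 by TPM among the 30 in the knockout. Next along the chromosome, Vmn2r124 was not called, although its knockout mice (43.6, 46.6 and 51.2 CPM) all lay above its wild-type mice (35.1, 36.4 and 42.5 CPM). Its log2 fold change was 0.31 (SE 0.09, adjusted p = 0.238 in edgeR).

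Vmn2r91 and Vmn2r92 follow, the pair with the most similar coding sequences of the set. Vmn2r91 had under 1 CPM in every mouse and was not called. Vmn2r92, at rank 5 by wild-type TPM, lay at 50.8, 39.5 and 55.6 CPM in wild-type mice and at 30.6, 27.5 and 32.9 CPM in knockout mice. The groups did not overlap, and the log2 fold change of -0.68 (SE 0.12) missed the threshold with an edgeR adjusted p of 0.0589. It was called lower in 5 of 17 alternatives: by DESeq2 (adjusted p = 4.39e-06), and in edgeR with no low-count filter (0.0204), with the replicate number as a block (0.0119), in males only (0.00866) and without wild-type mouse 2, the lowest of its group (log2 fold change -0.81, adjusted p = 0.0137).

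Vmn2r94 and Vmn2r93 lie next to each other on opposite strands and were both called lower. Vmn2r94 lay at 14.6, 15.02 and 18.3 CPM in wild-type mice and at 7.85, 8.08 and 9.57 CPM in knockout mice, a log2 fold change of -0.91 (SE 0.12, adjusted p = 0.0112 in edgeR). Vmn2r93 lay at 27.5, 31.8 and 32.4 CPM in wild-type mice and at 10.31, 10.9 and 14.001 CPM in knockout mice, a log2 fold change of -1.38 (SE 0.12, adjusted p = 0.00149 in edgeR). Neither receptor's groups overlapped, and Vmn2r93 kept its call in all 17 alternative analyses. Vmn2r94 missed the threshold with limma on log2(TPM + 0.1) (adjusted p = 0.138), and in edgeR without knockout mouse 1 (adjusted p = 0.0581 in edgeR) or knockout mouse 2 (0.0583).

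Vmn2r95, Vmn2r96, Vmn2r97 and Vmn2r98 are consecutive receptors on the plus strand, and 1 of the 4 was called. Vmn2r95 was at 15.01 ± 0.0787 CPM in wild-type and 19.0 ± 1.27 CPM in knockout mice (SD, n = 3 each) and was not called (log2 fold change 0.34, adjusted p = 0.0984 in edgeR). Vmn2r96, second by wild-type TPM, lay at 76.0, 77.8 and 84.1 CPM in wild-type mice and at 76.5, 83.3 and 83.1 CPM in knockout mice. Its groups overlapped, its log2 fold change was 0.03 (SE 0.06, adjusted p = 0.924 in edgeR), and it ranked first by TPM in the knockout. Vmn2r97 lay at 18.8, 26.4 and 23.5 CPM in wild-type mice and at 4.29, 3.65 and 4.73 CPM in knockout mice. The highest knockout mouse stood far below the lowest wild-type mouse, and the log2 fold change of -2.44 (SE 0.15, adjusted p = 0.000131 in edgeR) differed from those of Vmn2r106 (-2.41) and Vmn2r108 (-2.38) by less than its SE. Vmn2r98 lay at 7.13, 4.08 and 6.46 CPM in wild-type mice and at 4.86, 5.12 and 5.12 CPM in knockout mice, with overlapping groups (log2 fold change -0.23, SE 0.19, adjusted p = 0.757 in edgeR). With a mouse left out, its log2 fold change ran from -0.43 (without wild-type mouse 2) to -0.066 (without wild-type mouse 1).

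The promoters of Vmn2r97 and Vmn2r98 are shown because these adjacent genes differed in response while their upstream sequences are nearly the same. The letters are RefSeq's for GRCm38.p6, on the plus strand, from 250 bases before each RefSeq start to the point where the GENCODE gene begins in Vmn2r98 (chr17:18914072-18914288 and chr17:19053243-19053459). Capitals in Vmn2r98 mark bases that are substituted or inserted relative to Vmn2r97.
Vmn2r97: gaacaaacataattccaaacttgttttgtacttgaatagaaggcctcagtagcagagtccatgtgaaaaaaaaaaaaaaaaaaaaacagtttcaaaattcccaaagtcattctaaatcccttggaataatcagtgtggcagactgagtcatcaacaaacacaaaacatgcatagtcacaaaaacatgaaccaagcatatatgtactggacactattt
Vmn2r98: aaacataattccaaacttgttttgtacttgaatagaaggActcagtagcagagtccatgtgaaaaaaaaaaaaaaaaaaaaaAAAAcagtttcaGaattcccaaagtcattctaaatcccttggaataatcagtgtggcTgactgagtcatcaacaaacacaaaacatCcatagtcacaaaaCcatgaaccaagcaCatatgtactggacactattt
Vmn2r98 differed by 6 substitutions and by 4 inserted bases in a run of a. As both windows were cut to 217 bases, the first 4 bases of Vmn2r97 have no partner in the Vmn2r98 window, and they count as differences in the identity of 93.7%. Among 66 pairs from the 12 receptors with at least 150 such bases this was the second highest identity, and the median was 70.8%. The highest pair was Vmn2r91 and Vmn2r92, at 98.1%. Within mice, the log2 ratio of Vmn2r97 to Vmn2r98 reads was 1.99 ± 0.65 in wild type and -0.26 ± 0.20 in knockout (SD, n = 3 each). The ranges did not overlap, and the difference of -2.25 reached the smallest p that 3 against 3 mice allow (two-sided exact permutation test, p = 0.1, adjusted p = 0.15 over 9 pairs). The pair was picked for its different calls, so the ratio describes that difference and is no further evidence for it. Among receptor pairs with different calls and under 94% coding identity, 206 of 234 (88.0%) separated in this way.

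From Vmn2r98 to Vmn2r103, over 0.759 Mb, 6 consecutive receptors were not called, with log2 fold changes between -0.29 and 0.26. Vmn2r99 was at 15.6 ± 2.90 CPM in wild-type and 13.7 ± 1.53 CPM in knockout mice (SD, n = 3 each). Vmn2r100 was at 14.9 ± 1.59 and 14.4 ± 2.29 CPM, and Vmn2r101 at 2.54 ± 0.314 and 3.05 ± 0.407 CPM. The groups of all 6 overlapped. Vmn2r102 was at 20.9 ± 0.652 and 17.1 ± 3.19 CPM, with 2 of 3 knockout mice below the wild-type range, and Vmn2r103 had under 1 CPM in each mouse. Without knockout mouse 3 the log2 fold change of Vmn2r102 was -0.45, just short of the threshold (adjusted p = 0.0526 in edgeR). That of Vmn2r99 ran from -0.32 to -0.051 with a mouse left out.

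On the minus strand, Vmn2r104 and Vmn2r105 come next and are among the 5 most abundant of the 30 in wild-type mice. Vmn2r104 lay at 27.8, 28.7 and 34.3 CPM in wild-type mice and at 19.98, 18.8 and 19.6 CPM in knockout mice. Its groups did not overlap, and its log2 fold change of -0.64 (SE 0.09, adjusted p = 0.0160 in edgeR) was the smallest called decrease. Its call was lost without wild-type mouse 2 (adjusted p = 0.0507 in edgeR) and without knockout mouse 1, 2 or 3 (0.0581, 0.0695 and 0.0561). It also missed the threshold in males only (adjusted p = 0.0871 in edgeR) and with limma on log2(TPM + 0.1) (adjusted p = 0.153). Vmn2r105 lay at 66.3, 68.8 and 78.1 CPM in wild-type mice and at 60.6, 67.2 and 71.0 CPM in knockout mice. These groups overlapped, and the log2 fold change was -0.10 (SE 0.08, adjusted p = 0.746 in edgeR). Over the 17 alternatives it ran from -0.24 to -0.027 and was never called.

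At the far end of the first block Vmn2r106, Vmn2r107, Vmn2r108 and Vmn2r110 were called lower. Vmn2r106 lay at 6.19, 4.45 and 7.56 CPM in wild-type mice and at 1.14, 1.15 and 1.13 CPM in knockout mice (log2 fold change -2.41, SE 0.20, adjusted p = 0.00105 in edgeR). The wild-type mice spread widely, and the knockout mice were nearly equal and well below them. Vmn2r107 lay at 36.9, 38.8 and 38.5 CPM in wild-type mice and at 14.2, 12.7 and 16.7 CPM in knockout mice (-1.39, SE 0.10, adjusted p = 0.000334 in edgeR). Vmn2r108 lay at 40.1, 41.8 and 40.2 CPM in wild-type mice and at 6.67, 7.42 and 9.31 CPM in knockout mice (-2.38, SE 0.12, adjusted p = 3.48e-05 in edgeR). Its wild-type mean was 5.22 times its knockout mean. Vmn2r110 lay at 22.4, 21.7 and 23.8 CPM in wild-type mice and at 4.96, 5.09 and 5.88 CPM in knockout mice (-2.09, SE 0.09, adjusted p = 2.20e-05 in edgeR). None of these 4 receptors had overlapping groups, and each kept its call in all 17 alternatives. Between them Vmn2r109 had only 21, 16 and 12 estimated reads in wild-type mice and 1, 5 and 15 in knockout mice. It was not called (log2 fold change -1.12, SE 0.66, adjusted p = 0.621 in edgeR). Over the 16 alternatives that gave it a value, its log2 fold change ran from -2.22 to -0.63.

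**Figure D2:**
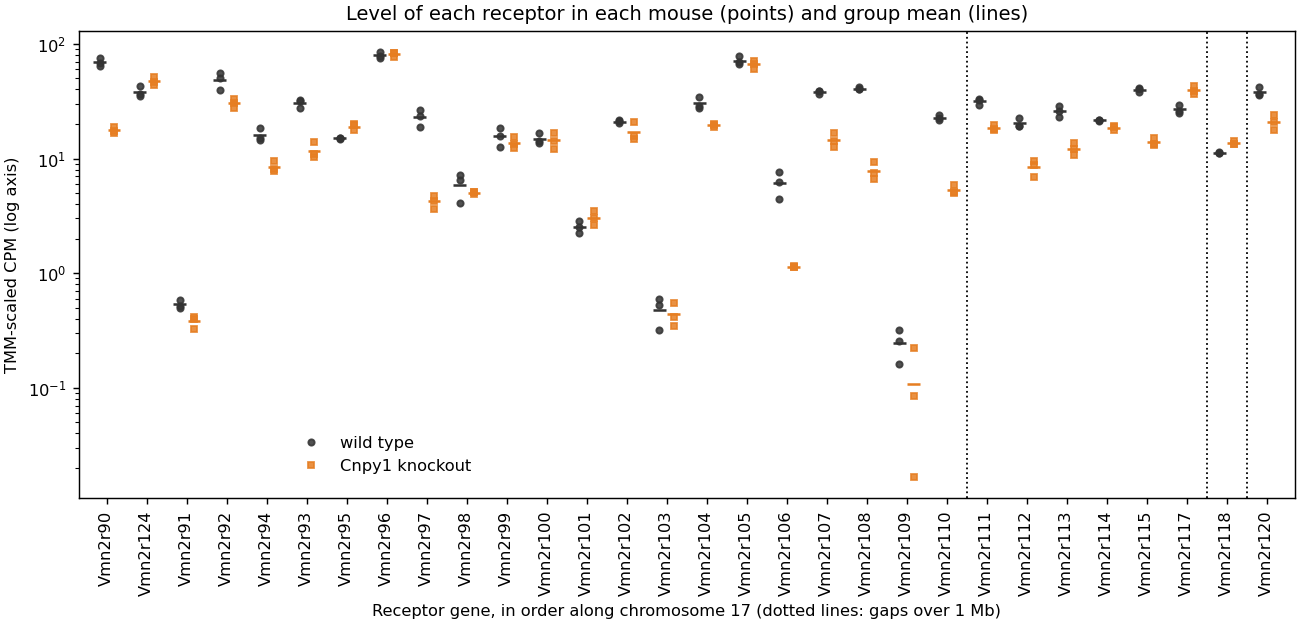
TMM-scaled CPM of each receptor in each mouse on a log axis, wild type as black circles and knockout as orange squares, with short lines at the group means. For Vmn2r90, Vmn2r97, Vmn2r106, Vmn2r108 and Vmn2r110 the 3 knockout mice lie together well under the wild-type mice, while Vmn2r96 and Vmn2r105 overlap.

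In the second block the decreases continued through Vmn2r111, Vmn2r112 and Vmn2r113. Vmn2r111 lay at 29.5, 32.6 and 33.0 CPM in wild-type mice and at 17.7, 19.6 and 17.9 CPM in knockout mice (log2 fold change -0.78, SE 0.07, adjusted p = 0.00162 in edgeR). Vmn2r112 lay at 19.1, 19.4 and 22.5 CPM in wild-type mice and at 8.74, 6.90 and 9.45 CPM in knockout mice (-1.28, SE 0.12, adjusted p = 0.00208 in edgeR). Both receptors' knockout mice lay below all of their wild-type mice. Vmn2r113 lay at 22.9, 25.9 and 28.8 CPM in wild-type mice and at 10.8, 13.7 and 12.2 CPM in knockout mice (-1.08, SE 0.11, adjusted p = 0.00311 in edgeR). Vmn2r113 shares over 20% of its 31-base sequences with Vmn2r-ps130, a V2R-like gene further along the same block, which was at 24.5 ± 1.10 CPM in wild-type and 32.2 ± 5.08 CPM in knockout mice. When the reads of both genes were added, the call was lost (log2 fold change -0.18, adjusted p = 0.575 in edgeR).

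The last 3 receptors of the second block, Vmn2r114, Vmn2r115 and Vmn2r117, gave 3 different outcomes. Vmn2r114 lay at 21.8, 21.9 and 21.1 CPM in wild-type mice and at 17.6, 18.9 and 19.1 CPM in knockout mice. The groups were apart, yet the log2 fold change of -0.22 (SE 0.06, adjusted p = 0.233 in edgeR) was not called. Vmn2r115 lay at 37.9, 40.2 and 41.1 CPM in wild-type mice and at 13.3, 15.1 and 13.0 CPM in knockout mice, a log2 fold change of -1.52 (SE 0.08, adjusted p = 3.48e-05 in edgeR). Vmn2r117 lay at 26.2, 24.8 and 29.4 CPM in wild-type mice and at 36.4, 38.9 and 43.2 CPM in knockout mice. All knockout mice were above all wild-type mice for Vmn2r117, and the log2 fold change was 0.56 (SE 0.09, adjusted p = 0.0296 in edgeR). That call was lost in 8 of 17 alternatives, among them limma on log2(TPM + 0.1) (adjusted p = 0.611) and males only (adjusted p = 0.168 in edgeR). With a mouse left out, the edgeR adjusted p rose to 0.141 without wild-type mouse 1, 0.140 without wild-type mouse 2, 0.0850 without knockout mouse 2 and 0.0698 without knockout mouse 3. The log2 fold change stayed between 0.44 and 0.63 in all 17 alternatives.

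Coding sequences show how alike these 3 receptors are. Vmn2r114 and Vmn2r117 share 96.6% of aligned coding bases, Vmn2r114 and Vmn2r115 95.9%, and Vmn2r115 and Vmn2r117 95.7%. The stretch printed is the 120-base window within 1 exon in which they differ most, coding bases 289 to 408. Its letters are those of the GENCODE M21 transcripts, in the sense of each gene. Reads that cover its differing bases carry letters that tell genes apart, but Vmn2r114 and Vmn2r117 are identical over a long run towards its end. As the window of most differences, it is not typical of the whole coding sequence. The windows are chr17:23311024-23311143 (minus strand) in Vmn2r114, chr17:23345144-23345263 (plus strand) in Vmn2r115 and chr17:23478309-23478428 (minus strand) in Vmn2r117. Capitals mark bases that differ from Vmn2r114.
Vmn2r114: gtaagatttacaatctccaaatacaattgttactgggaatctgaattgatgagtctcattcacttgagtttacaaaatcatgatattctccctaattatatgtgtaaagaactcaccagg
Vmn2r115: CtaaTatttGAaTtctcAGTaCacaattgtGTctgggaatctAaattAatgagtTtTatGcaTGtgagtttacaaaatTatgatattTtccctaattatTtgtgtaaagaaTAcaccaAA
Vmn2r117: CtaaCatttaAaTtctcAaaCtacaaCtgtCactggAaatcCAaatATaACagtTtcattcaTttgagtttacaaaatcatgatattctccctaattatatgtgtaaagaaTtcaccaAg
Vmn2r115 differs from Vmn2r114 at 25 and Vmn2r117 at 19 of these 120 bases. Within mice, the log2 ratio of Vmn2r115 to Vmn2r117 reads was 0.57 ± 0.11 in wild type and -1.52 ± 0.19 in knockout (SD, n = 3 each). Vmn2r115 was thus the more abundant of the pair by reads in all wild-type mice and the less abundant in all knockout mice. The log2 ratio of Vmn2r114 to Vmn2r115 moved from -0.88 ± 0.08 to 0.43 ± 0.12, and that of Vmn2r114 to Vmn2r117 from -0.31 ± 0.15 to -1.09 ± 0.07. Each of these 3 changes separated the genotypes completely (two-sided exact permutation tests, p = 0.1, the smallest possible, adjusted p = 0.15 over 9 pairs). The 3 receptors differ in their calls, so the ratios restate those outcomes and are no further evidence for them.

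Of the isolated receptors, Vmn2r118 lay at 11.4, 11.2 and 11.2 CPM in wild-type mice and at 13.5, 13.4 and 14.2 CPM in knockout mice. All knockout mice were above, but the log2 fold change of 0.28 (SE 0.07, adjusted p = 0.152 in edgeR) was not called. Vmn2r120 lay at 36.4, 36.0 and 41.8 CPM in wild-type mice and at 20.6, 23.8 and 17.9 CPM in knockout mice, a log2 fold change of -0.87 (SE 0.11, adjusted p = 0.0101 in edgeR). Its groups did not overlap. Without knockout mouse 1 its edgeR adjusted p was 0.0520.

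The position of a receptor was set against its response in several ways. Across the 30, Spearman's rho between log2 fold change and start position was -0.09, a description over genes of the same 6 libraries. Immediate neighbours in the first block differed by a median of 0.55 in log2 fold change (21 pairs), against 0.94 over all 231 pairs of that block. Vmn2r96 and Vmn2r97, which are neighbours, differed by 2.47. In the first block 4 of 15 receptors on the plus strand and 5 of 7 on the minus strand were called lower. In the second block 3 of 3 on the plus strand were lower, and of 3 on the minus strand 1 was lower and 1 higher. The minus-strand genes of the first block lie mostly together at its far end, so strand and place cannot be told apart.

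Summed over the 30 genes, the reads were 743, 802 and 899.8 CPM in wild-type mice and 492, 500.3 and 595 CPM in knockout mice, here without TMM factors. The knockout mean was 64.9% of the wild-type mean (815 ± 79.2 against 529 ± 57.4 CPM, SD, n = 3 each). All knockout sums were below all wild-type sums (log2 ratio -0.62, two-sided exact permutation test, p = 0.1, the smallest possible). The 91 other V2R genes together stood at 65.0%, with 4870 ± 443 CPM in wild-type and 3164 ± 299 CPM in knockout mice. The 30 receptors made up 14.3 ± 0.179% of all V2R reads in wild-type and 14.3 ± 0.937% in knockout mice. The log2 ratio of the 30 to the other V2Rs changed by -0.0015 between genotypes (two-sided exact permutation test, p = 1.0), and knockout mice spanned -2.71 to -2.51 around a wild-type range of -2.60 to -2.56. On summed TPM the 30 stood at 60.5% and the other V2Rs at 65.0% of wild type, and the log2 ratio changed by -0.11 (exact permutation p = 0.2).

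The blocks were compared within mice as the ratio of each block's summed reads to those of the first. The second block stood at 65.3% of wild type and the first at 64.5%, and their log2 ratio changed by 0.019 (two-sided exact permutation test, p = 0.7, adjusted p = 0.7 over 3 blocks). Relative to the first block, Vmn2r118 was 0.89 higher on the log2 scale in knockout mice, with no overlap between genotypes (exact permutation p = 0.1, the smallest possible, adjusted p = 0.3). Vmn2r120 relative to the first block changed by -0.28, with wild-type mice at -3.99 to -3.92 and knockout mice at -4.56 to -3.99 (exact permutation p = 0.2, adjusted p = 0.3). Leaving out knockout mouse 3 moved the value for Vmn2r120 to -0.11, and leaving out knockout mouse 2 moved it to -0.40. In males only it was -0.13. All of these values depend on the reference. When the split is made at gaps over 0.25 Mb, Vmn2r90 alone becomes the first block. Relative to it, the second block's 3 parts were higher in knockout mice by 1.02 (Vmn2r111 and Vmn2r112), 0.89 (Vmn2r113) and 1.68 (Vmn2r114, Vmn2r115 and Vmn2r117), Vmn2r118 by 2.26 and Vmn2r120 by 1.09 on the log2 scale (exact permutation p = 0.1 each).

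The receptors differed by unequal amounts, and so the make-up of the set differed between genotypes. The 14 lower receptors held 54.6%, 56.9% and 56.0% of the summed TPM of the 30 in wild-type mice and 32.9%, 32.4% and 31.7% in knockout mice. The 15 receptors that were not called went from a mean of 41.6% to 61.8%, and Vmn2r117 from 2.55% to 5.90%. These 3 groups were formed by their calls, so the shares describe the change in make-up and are no further evidence for it. Vmn2r90 went from 15.6% to 6.26%, Vmn2r96 from 13.4% to 21.4% and Vmn2r105 from 10.26% to 14.4%. Across the 30, mean wild-type and mean knockout TPM had a Spearman's rho of 0.76. Wild-type mean TPM ranged from 0.108 (Vmn2r109) to 30.3 (Vmn2r90). At the top of the wild-type order, Vmn2r90 (30.3 ± 4.43 TPM) was above Vmn2r96 (25.9 ± 2.42 TPM) within each of the 3 wild-type mice. Further down, Vmn2r104 (10.45 ± 1.87), Vmn2r92 (10.35 ± 1.91) and Vmn2r115 (10.17 ± 1.12 TPM) did not keep 1 order in all mice: each was above the next in 2 of 3. The level in wild type and the log2 fold change had a Spearman's rho of -0.23 across the 30.

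**Figure D3:**
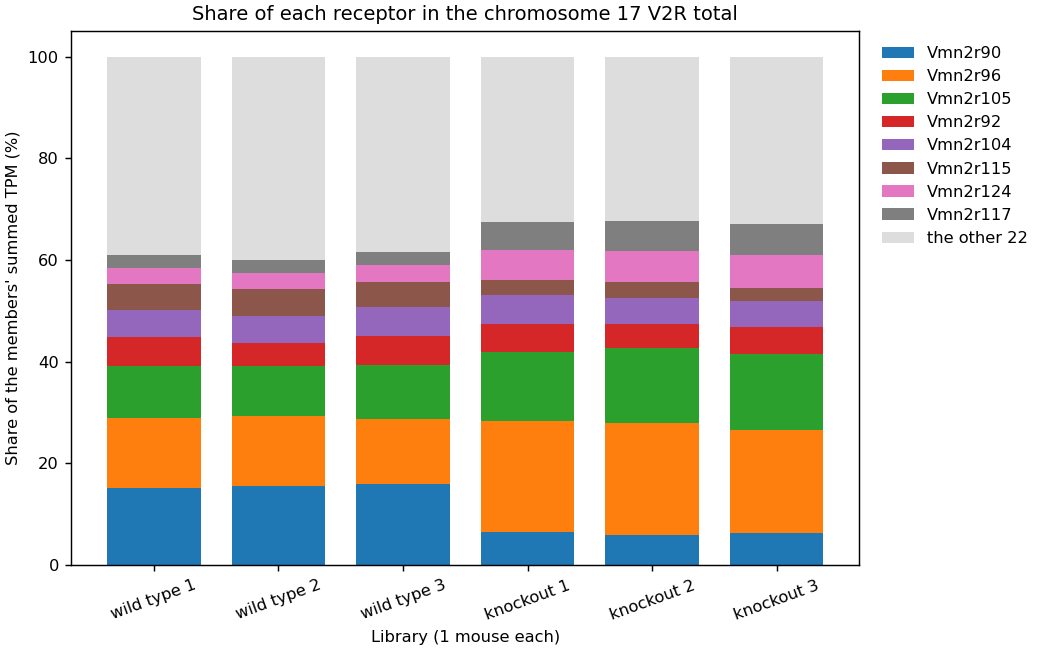
Share of each named receptor in the summed TPM of the 30 receptors, 1 bar per library. Vmn2r90 (blue, at the bottom) takes 15.2% to 15.9% in the wild-type mice and 5.93% to 6.51% in the knockout mice, while Vmn2r96 (orange) takes 12.7% to 13.8% and 20.3% to 22.1%.

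Coding sequence identity was computed for all 435 pairs of the 30 receptors, whose annotated coding models ran from 2457 to 2661 bases. Each model is the gene's longest annotated coding sequence, whatever its type or level. That of Vmn2r96 is annotated for nonsense-mediated decay, described below, and that of Vmn2r105 had 0 reads in every library. The median was 80.9% and the range 64.0% to 98.5%. Receptors of the first block against those of the second shared a median of 65.4%, while the 15 pairs within the second block shared a median of 92.3%. Vmn2r90, Vmn2r118 and Vmn2r120 shared at most 75.6% (with Vmn2r91), 69.5% (with Vmn2r113) and 67.8% (with Vmn2r113) with any other of the 30. The 9 pairs of at least 94% identity differed by a median of 0.78 in log2 fold change, against 0.89 over the 426 other pairs. In 6 of the 9 (66.7%) the within-mouse ratio separated the genotypes (exact permutation p = 0.1 each, adjusted p = 0.15). These 6 were Vmn2r96 and Vmn2r97, Vmn2r97 and Vmn2r98, Vmn2r111 and Vmn2r112, and the 3 pairs among Vmn2r114, Vmn2r115 and Vmn2r117. In the other three (Vmn2r91 and Vmn2r92, Vmn2r96 and Vmn2r98, and Vmn2r102 and Vmn2r103) the ratios overlapped. Among the 426 pairs of lower identity the ratio separated the genotypes in 315 (73.9%). Separation went with the calls. Pairs with different calls separated in 5 of 5 of at least 94% identity and in 206 of 234 (88.0%) below it. Pairs with the same call separated in 1 of 4 and in 109 of 192 (56.8%).

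**Figure D4:**
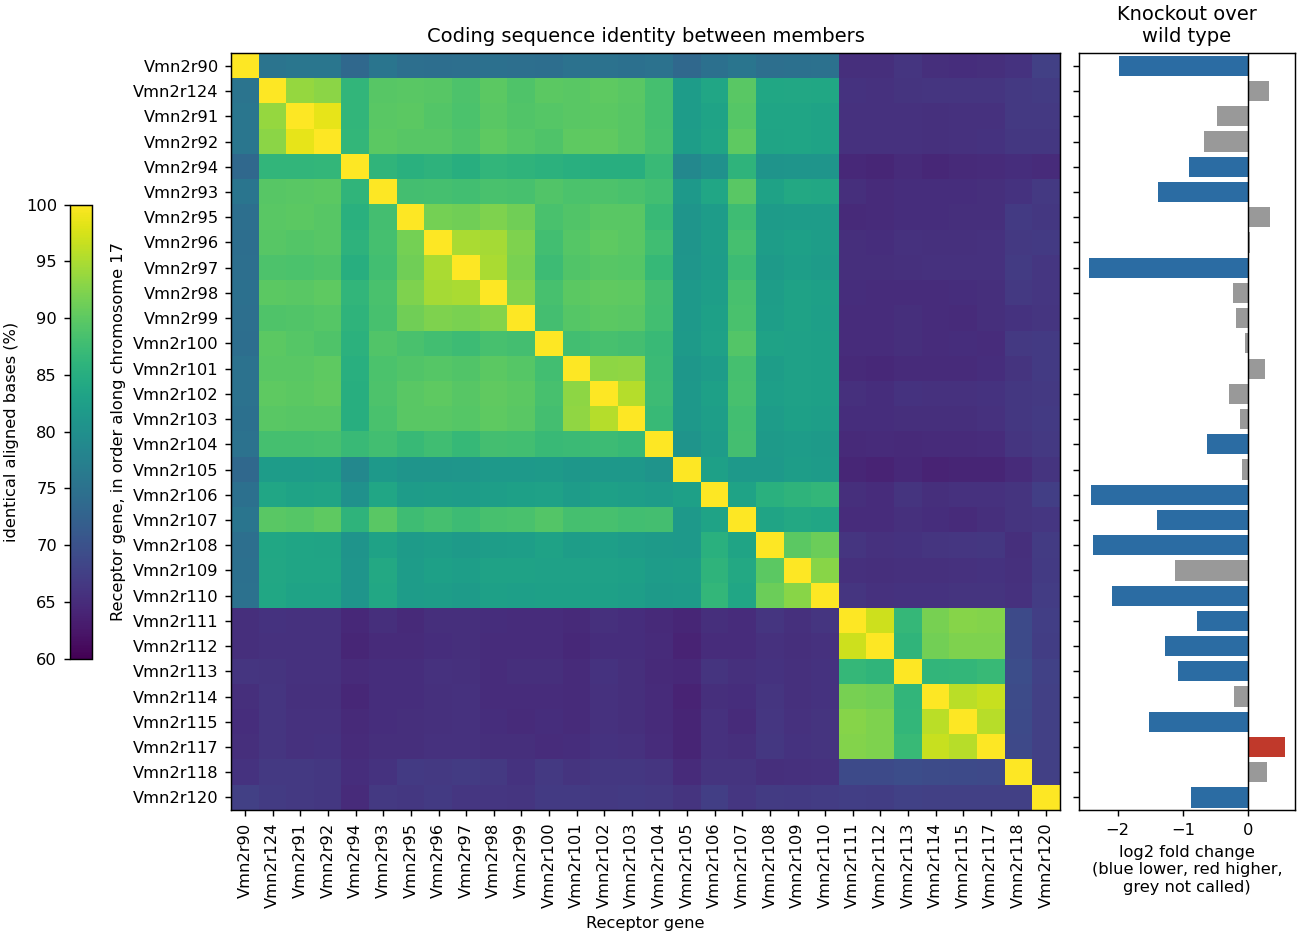
Percent of identical aligned coding bases for each pair of receptors (left, in order along chromosome 17) beside the log2 fold change of each receptor (right, blue called lower, red called higher, grey not called). The blocks of like sequence at Vmn2r95 to Vmn2r99 and at Vmn2r114 to Vmn2r117 each hold receptors with log2 fold changes more than 2 apart.

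Near-identical copies can trade reads when a quantifier divides them, so each receptor was checked for sequence of its own. In 29 of the 30 over 50% of the 31-base sequences occur in no other gene. Vmn2r91 had 20.5%, and shared 71.8% with Vmn2r92, so its level is uncertain. Genes were then joined where at least 20% of the 31-base sequences of either one occur in the other. Their reads were added and tested as 1 unit. Vmn2r114, Vmn2r115 and Vmn2r117 share at most 11.9%, 12.6% and 17.7% with any other gene and were not joined. Their different outcomes were therefore not checked in this way. Vmn2r97 and Vmn2r98 together were lower (log2 fold change -1.64, adjusted p = 4.21e-05 in edgeR), as were Vmn2r111 and Vmn2r112 (-0.96, adjusted p = 0.000153 in edgeR) and Vmn2r109 and Vmn2r110 (-2.08, adjusted p = 3.13e-05 in edgeR). Vmn2r91, Vmn2r92 and Vmn2r124 together were not called (-0.16, adjusted p = 0.629 in edgeR), nor were Vmn2r102 and Vmn2r103 (-0.29, adjusted p = 0.461 in edgeR) or Vmn2r96 with Vmn2r-ps117 (0.04, adjusted p = 0.892 in edgeR). Of Vmn2r124's own 31-base sequences 87.5% are unique, and it shares most with Vmn2r91 (4.10%). Its change goes the other way from that of Vmn2r92, so the value of their unit describes neither gene. Percent unique sequence and log2 fold change had a Spearman's rho of -0.03 across the 30.

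Several transcripts contribute to most of these genes, and transcripts with at least 10% of their gene's reads were examined. Their levels are CPM without TMM factors and were not tested. Over all 25807 such transcripts of tested genes, 7.53% had every knockout mouse below every wild-type mouse and 3.89% had every knockout mouse above. For the 14 lower receptors, 33 of 35 such transcripts had every knockout mouse below every wild-type mouse, and 2 overlapped. These genes were grouped by their calls, so the count describes how the decrease is spread over transcripts and is no further evidence for it. Vmn2r90 had 4 of them, 1 protein-coding and 3 annotated for nonsense-mediated decay, a route that degrades RNAs with an early stop, and all 4 were lower. Its protein-coding transcript had 1018, 1051 and 1174 reads in wild-type mice and 231, 269 and 295 in knockout mice. Of the 2 transcripts of Vmn2r117, the protein-coding one had means of 16.5 and 27.4 CPM with every knockout mouse above every wild-type mouse, and the other, annotated for nonsense-mediated decay, overlapped at 8.75 and 8.72 CPM. Among the receptors not called, 2 of 27 transcripts were below, 5 above and 20 overlapping.

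The bases around the annotated starts were also searched, over RefSeq windows of 300 bases (250 before to 50 after each RefSeq start) on both strands, with the share of all 32851 windows given for each motif. These windows are not all upstream sequence: the GENCODE gene begins before the RefSeq start in 28 of 30 receptors, and 12 of the 30 windows hold at least 150 bases before the GENCODE start. These 12 are 2 of the 14 lower receptors and 10 of the 15 not called, so motif counts are not compared between the calls. The homeodomain core TAATTA occurred in 8 of 30 receptor windows (Vmn2r91, Vmn2r92, Vmn2r95, Vmn2r99, Vmn2r101, Vmn2r103, Vmn2r106 and Vmn2r118) and in 5.29% of all. TATAAA occurred in 7 (13.6% of all windows), which were Vmn2r90, Vmn2r94, Vmn2r96, Vmn2r99, Vmn2r103, Vmn2r118 and Vmn2r124. GCCNNNGGC occurred in 1, Vmn2r105 (16.6% of all), and the palindromic EBF consensus in 0 (0.904% of all). Receptors share ancestry and sequence, so their windows are not independent, and a match is no evidence of binding.

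Genes that lie between the receptors were followed for comparison. Blocks 1 and 2 hold 60 other annotated genes, of which 25 were tested and 1 was called, the V2R Vmn2r116, a receptor for the tear peptide ESP1. Vmn2r116 lay at 38.9, 43.0 and 45.1 CPM in wild-type mice and at 20.9, 24.9 and 25.3 CPM in knockout mice (log2 fold change -0.84, SE 0.09, adjusted p = 0.00418 in edgeR), between the called Vmn2r115 and Vmn2r117. Of the 9 V2R genes with -ps names that were tested, edgeR called 0, and their median log2 fold change was 0.23. At an unadjusted p under 0.05, 2 of these were lower and 4 higher, DESeq2 called 1 lower and 2 higher, and limma called 0. Of the 15 tested genes without V2R names edgeR called 0, with a median of 0.05 (3 were higher at an unadjusted p under 0.05, and DESeq2 and limma called 0). These 15 include 6 formyl peptide receptors, chemosensory and immune receptors that lie inside the first block. Several of the interleaved genes had few reads, with wild-type means of 0.482 CPM for Fpr1, 0.472 for Fpr2 and 0.465 for Vmn2r-ps133. Others were higher, such as Vmn1r224 at 31.6 CPM. Over all genes tested edgeR called 0.683% lower and 0.0779% higher. A count of 0 in lists this short therefore does not show that these genes were unaffected.

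Markers of the cells in the organ were set beside these results. Of 12 listed markers of basal neurons, 7 are themselves V2R genes (Vmn2r1 to Vmn2r7), which also count among the 91 other V2Rs. Of these 7, 3 were lower (Vmn2r1, Vmn2r6 and Vmn2r7), and their summed level was 809.9 to 896 CPM in wild-type and 544 to 650.1 CPM in knockout mice. Of the 5 that are not V2R genes, 1 was lower (Gnao1), while Tfap2e, Robo2, B2m and Calr4 were not called. The sum of these 5 was 1171 to 1242 CPM in wild-type and 1052 to 1055 CPM in knockout mice, with a median log2 fold change of -0.21. In each of the 5 every knockout mouse was below every wild-type mouse, and 4 were lower at an unadjusted p under 0.05. Gnao1, the basal G protein subunit, went from 310.2 ± 8.48 to 234 ± 8.08 CPM, a log2 fold change of -0.41 (adjusted p = 0.0143 in edgeR). Of 9 markers of mature neurons of both classes, 1 was lower (Stom), and the sum was 3173 to 3370 against 2660 to 2760 CPM. Of 6 apical markers edgeR, DESeq2 and limma called 0 (1 was higher at an unadjusted p under 0.05), and their sum was 1384 to 1433 against 1492 to 1579 CPM. No marker of these lists was at 0 reads. Of 9 H2-Mv genes, nonclassical MHC genes of basal neurons, 2 were lower (H2-M10.1 and H2-M10.3) and 4 were called lower and 1 higher by DESeq2, with sums of 316 to 322 against 264 to 309 CPM. Of 7 markers of progenitors and immature neurons, 1 was higher (Top2a, log2 fold change 0.40, adjusted p = 0.0421 in edgeR), DESeq2 called 2 higher, and the median log2 fold change was 0.40. Their sums overlapped, at 146 to 169 and 160.5 to 185 CPM. DESeq2 called 6 of the basal (5 of them V2R genes), 5 of the mature and 0 of the apical markers lower. The part that the number of basal or mature neurons has in the receptors' decrease was not tested, nor was that of progenitors. Of 30 listed genes of the signalling pathway below the receptors and of their transport to the surface, 29 were found, 28 were tested and 1 was lower (Gnao1), with a median log2 fold change of -0.12 over the 28. DESeq2 called 5 of the 28 lower, 10 were lower and 2 higher at an unadjusted p under 0.05, and 10 had every knockout mouse below every wild-type mouse.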

How the data were processed

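Poly(A) RNA from the vomeronasal organs of 6 mice, 1 library per mouse, was examined. The authors deposited estimated counts and TPM for 117081 transcripts per library, per the file headers. The submitters' processing notes name Trim Galore 0.6.6, Salmon 1.9.0, DESeq2 and the builds mm10 and GRCm38. Here, transcripts were joined to GENCODE M21 genes (1139 without a gene, 0.277% to 0.355% of reads, were left out). Estimated counts were summed per gene and rounded. The test was edgeR 4.0.16's quasi-likelihood F test (TMM, filterByExpr, genotype as the only term, Benjamini-Hochberg adjustment over 16679 genes, common biological variation 12.8%). The standard error is the fold change divided by the root of F. Sums and ratios of reads were compared by two-sided exact permutation tests, whose smallest p with 3 against 3 mice is 0.1. Alternatives used DESeq2 1.42.0, limma 3.58.1, other scalings, sex or replicate terms, left-out mice and merged near-identical genes. Coding sequences were aligned globally with edlib 1.3.9.post1. By rule, per-mouse values are given for called receptors and the 5 most abundant in wild type. Those of Vmn2r98, Vmn2r109, Vmn2r114, Vmn2r118 and Vmn2r124 were added after their values were seen. The receptors, gene lists and motifs were chosen with earlier results of these data known. Separate mice make up each group, so p-values measure the spread between mice.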

Additional observations from a re-analysis of the deposited data

How the results depend on the processing

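Of 509 values of receptors over 17 alternative analyses (with near-identical genes merged, a receptor has the value of its unit), 473 kept their direction and their side of the threshold, 19 lost and 9 gained a call, and 8 changed sign. Of the 9, Vmn2r98 and Vmn2r109 gained theirs only as part of a unit with Vmn2r97 and Vmn2r110, and both count among the 15 lower there. Of the 14 lower receptors, 10 were called lower in all 17. The number called lower was 11 to 15 over the alternatives. The number called higher, 1 in the main analysis, was 2 with DESeq2 (Vmn2r95 and Vmn2r117), 0 with limma on log2(TPM + 0.1), 0 without scaling factors, 0 with sex as a term, 0 in males only, and 0 to 1 with a mouse left out. The replicate numbers do not pair the mice (correlations of same-numbered mice 0.15, -0.09 and 0.23, and not every mouse correlated best with its own number). With the number as a replicate block, 15 receptors were lower, Vmn2r92 besides the 14, and 2 were higher, Vmn2r124 and Vmn2r117. Signs changed for Vmn2r124 merged with Vmn2r91 and Vmn2r92 (-0.16), Vmn2r96 on TPM (-0.050), without scaling (-0.0021) and in males (-0.0037), Vmn2r100 without wild-type mouse 2 or knockout mouse 2 (-0.17 to 0.058 over left-out mice), and Vmn2r103 without wild-type mouse 3 or knockout mouse 2 (-0.35 to 0.052). The log2 change of the 30 receptors relative to the other V2Rs was -0.11 on summed TPM and -0.037 to 0.063 with a mouse left out, positive without wild-type mouse 1, wild-type mouse 3 or knockout mouse 2, and that of the second block relative to the first was -0.015 (without knockout mouse 2) to 0.052. With blocks split at 0.25 Mb, Vmn2r90 becomes the first block, and relative to it the parts of the second block changed by 0.89 to 1.68, against 0.019 in the main split, Vmn2r118 by 2.26 and Vmn2r120 by 1.09. The 3 mice per genotype, the few reads of Vmn2r109 and the division of reads among near-identical genes limit these results. The cause of each change was not tested.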

Other observations

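Among the receptors without a call, 3 had every knockout mouse above every wild-type mouse: Vmn2r124, Vmn2r95 and Vmn2r118. At the level of transcripts with at least 10% of a gene's reads, the protein-coding transcript of Vmn2r124 had a mean of 21.2 CPM in wild-type and 29.0 CPM in knockout mice, with the groups apart (CPM of transcripts are without TMM factors). Its other two such transcripts overlapped, with means of 9.85 and 9.10 CPM and of 4.77 and 5.58 CPM. In Vmn2r95, 2 protein-coding transcripts were apart in the same direction, with means of 6.70 and 9.11 CPM for one and 1.65 and 3.23 CPM for the other. The remaining transcript of Vmn2r95, with 39.3% of its reads, overlapped (6.84 and 6.48 CPM). The main transcript of Vmn2r118 went from 10.39 to 12.6 CPM. In Vmn2r105, whose gene level overlapped, 1 of 4 such transcripts was above wild type in every knockout mouse (9.17 against 13.6 CPM), and the other three overlapped. These transcripts were picked with their values in view, and transcript levels were not tested.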
